A study of Mus musculus with 36 samples.

Results

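The expression of 41 skeletal muscle genes was followed in the fetal mouse mammary gland, array by array. These genes encode the proteins of the contractile fibre, its calcium and energy supply, the regulators that switch them on and the acetylcholine receptor. They were chosen by their known function in muscle, with earlier results of these data known. Each gene was represented by a probe set, a group of short oligonucleotides on the array. Of the probe sets annotated to that gene alone, the one with the highest mean signal over all arrays was taken. All 41 had such a probe set, out of 18194 gene symbols on the array, and none was removed by a filter. The 36 Affymetrix arrays held mRNA from laser-captured epithelium and peri-ductal stroma of the inguinal mammary gland of female C57BL/6 fetuses, in 12 groups of 3. The groups were ERα(+/+) or ERα(−/−), that is with or without the estrogen receptor alpha gene, and their mothers had received bisphenol A (BPA, 250 ng/kg/day), ethinyl estradiol (EE2, 10 ng/kg/day) or DMSO vehicle by implanted pump from E8 to E19. The fetuses were harvested at E19, each group held fetuses of 3 litters, and the minute RNA samples were amplified before hybridization. Both compartments were captured from the same gland, and arrays of one group and replicate number were taken as 1 gland, which gave 18 pairs. The targeted gene Esr1 had 20.3 to 397 (median 114.5) in the ERα(+/+) stroma and 13.9 to 81.8 (median 37.6) in the ERα(−/−) stroma, and 1.10 to 142 and 1.60 to 100.2 in the epithelium. These ranges overlapped, and where the probes lie relative to the disrupted part of the gene is not given in the sources used here, so they do not check the genotype labels.

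In a muscle fibre, myosin heavy chains of the thick filament pull on actin of the thin filament when calcium released from the sarcoplasmic reticulum binds troponin. Fibres form by fusion of myoblasts under the basic helix-loop-helix regulators Myod1, Myf5, Myog and Myf6, and fetal fibres use embryonic and perinatal myosins before the adult slow and fast forms replace them. The mammary epithelium and its fibroblast and fat stroma are not known for these proteins, whereas the subcutaneous panniculus carnosus and the muscles of the body wall lie near the gland.

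Skeletal muscle genes were bright on 5 of the 36 arrays and dim on nearly all others. The level of the genes on an array was taken as the median over the 41 genes of the log2 signal minus the median of that gene over all arrays. It was 4.96 in the stroma of ERα(−/−) EE2 replicate 3, 4.56 in the stroma of ERα(+/+) EE2 replicate 2 and 4.04 in the stroma of ERα(−/−) BPA replicate 1. In the epithelium it was 3.71 for ERα(−/−) EE2 replicate 3 and 3.08 for ERα(−/−) BPA replicate 1. The epithelium of replicate 1 of ERα(+/+) vehicle followed with 1.32 and that of ERα(−/−) vehicle with 0.75, and the other 29 arrays lay between −1.09 and 0.25. No value lay between 1.32 and 3.08, and none of the vehicle arrays was among the 5. These 5 arrays were picked out by their signal after the values were seen, so no test was run between them and the others.

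In linear signal the 41 genes summed to 62712 in the stroma of ERα(+/+) EE2 replicate 2, 60103 in the stroma of ERα(−/−) EE2 replicate 3 and 44145 in the stroma of ERα(−/−) BPA replicate 1. They summed to 31478 in the epithelium of ERα(−/−) EE2 replicate 3 and to 21032 in that of ERα(−/−) BPA replicate 1. The epithelium of vehicle replicate 1 held 4022 in ERα(+/+) and 3332.5 in ERα(−/−), and the other 29 arrays held 355 to 1568, with a median of 937.7. On the brightest array the genes made up 0.704% of the summed signal of all probe sets, and on those 29 arrays 0.00393% to 0.0139%. In bulk tissue a smaller share of muscle fibres and less muscle RNA per fibre cannot be told apart, and whether muscle fibres lay in the captured tissue was not tested.

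**Figure D1:**
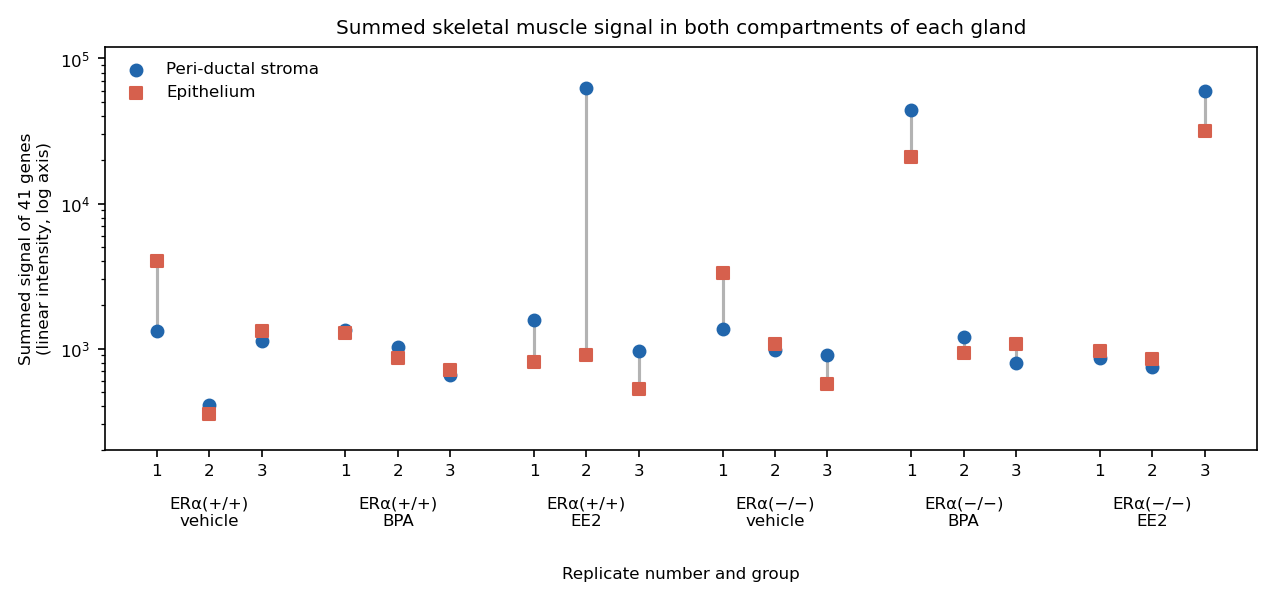
Summed signal of the 41 skeletal muscle genes (linear intensity on a log axis) for each of the 18 glands, with the peri-ductal stroma as circles and the epithelium as squares joined by a line. Both compartments are high in ERα(−/−) BPA replicate 1 and ERα(−/−) EE2 replicate 3, the stroma alone in ERα(+/+) EE2 replicate 2 (62712 against 904), and the epithelium of vehicle replicate 1 lies above its stroma in both genotypes.

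The pattern was shared by most of the genes. Of the 41 genes, 26 (63.4%) had exactly these arrays as their own 5 highest. At least 4 of them were among the top 5 of 33 genes (80.5%), against 60 of the 18153 other genes (0.331%). The arrays were picked by the level of these same 41 genes, so a high share is built into this count. The stroma of ERα(+/+) EE2 replicate 2 was the highest of all arrays for 20 genes, the stroma of ERα(−/−) EE2 replicate 3 for 13, the stroma of ERα(−/−) BPA replicate 1 for 3 and the epithelium of ERα(−/−) EE2 replicate 3 for 3. The 2 exceptions were acetylcholine receptor subunits. A signal of at least 100 was reached by 28 to 33 genes on each of the 5 arrays, by 14 and 9 genes in the epithelium of ERα(+/+) and ERα(−/−) vehicle replicate 1, and by 0 to 4 on the other 29. Signals of different probe sets were not compared with each other.

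**Figure D2:**
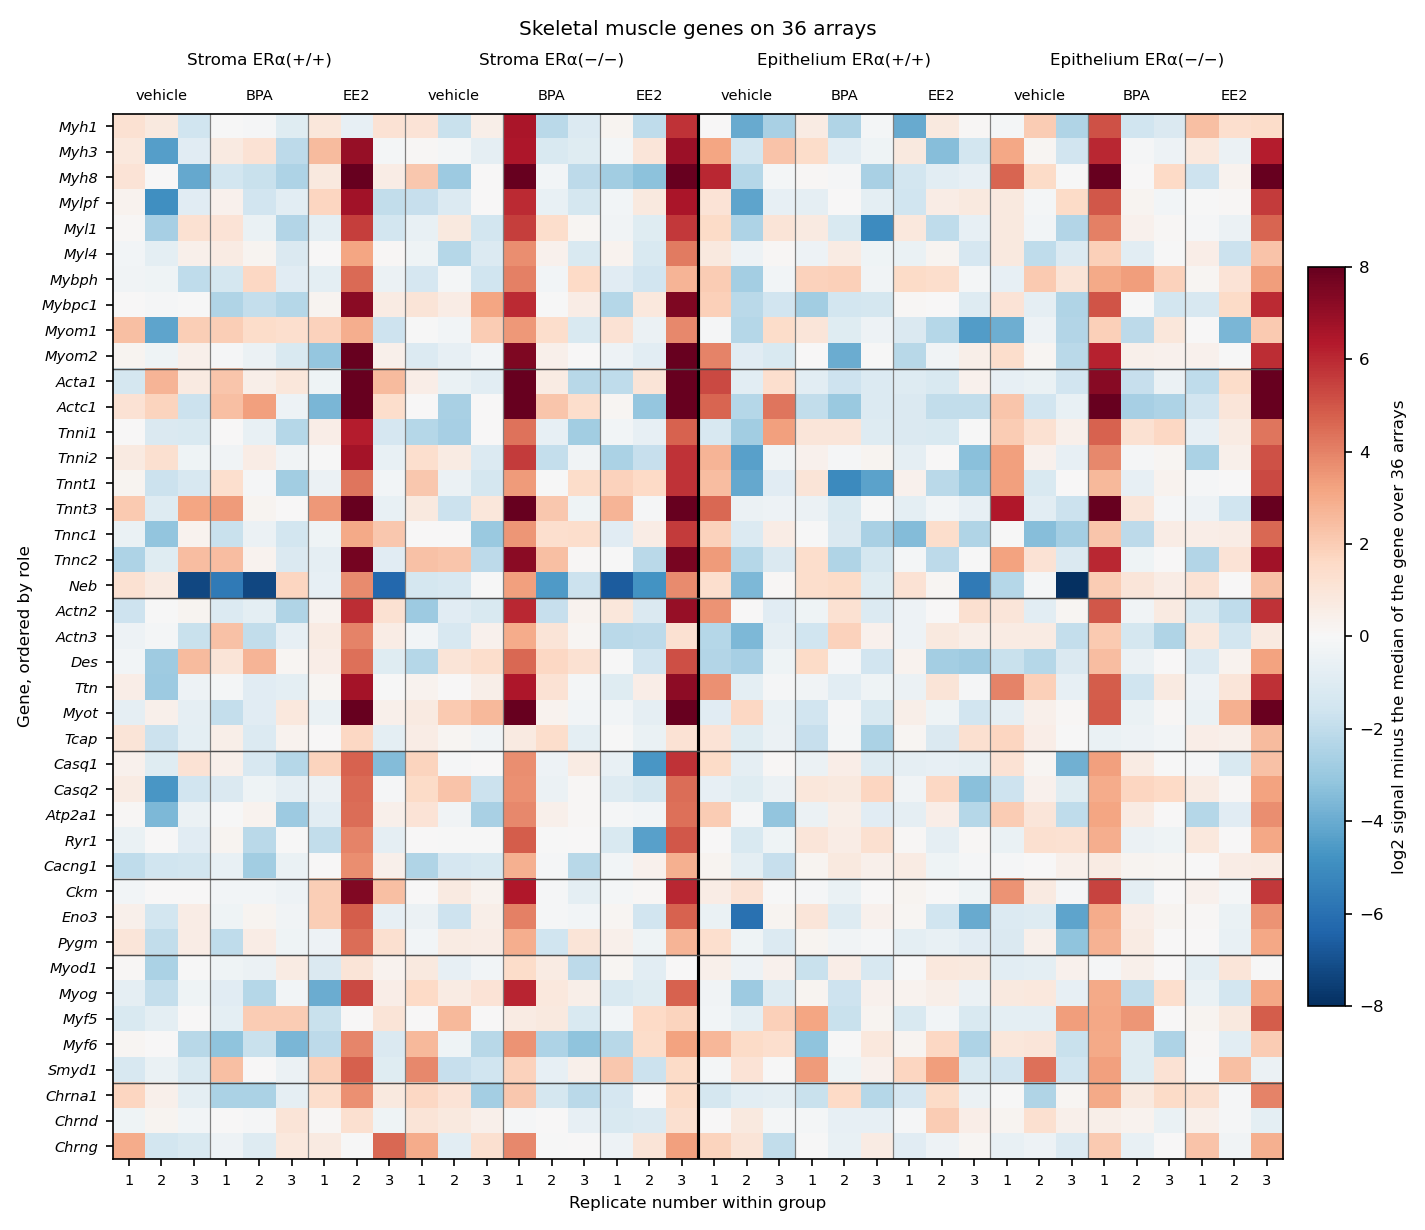
Log2 signal of each of the 41 genes minus its own median over 36 arrays, on a colour scale from −8 to 8, with genes in rows by role and arrays in columns by compartment, genotype, exposure and replicate number. The 5 dark red columns are stroma ERα(+/+) EE2 replicate 2, stroma and epithelium ERα(−/−) BPA replicate 1, and stroma and epithelium ERα(−/−) EE2 replicate 3, and the myogenic regulators and receptor subunits at the bottom follow them less closely than the filament genes.

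Among the 10 thick filament genes, 7 had the same 5 arrays on top. Myh3, the embryonic myosin heavy chain, had a signal of 9312 in the stroma of ERα(+/+) EE2 replicate 2, 8801 and 5975 in the stroma and epithelium of ERα(−/−) EE2 replicate 3, and 6682 and 4954 in those of ERα(−/−) BPA replicate 1. On the other 31 arrays Myh3 ran from 3.60 to 681, with a median of 67.5. Its next highest values were 681 and 634 in the epithelium of ERα(+/+) and ERα(−/−) vehicle replicate 1. Myh8, the perinatal heavy chain, had 7609.9 in the stroma of ERα(+/+) EE2 replicate 2, 5926.5 and 3492 in ERα(−/−) EE2 replicate 3, and 5129 and 2473 in ERα(−/−) BPA replicate 1, in stroma and epithelium order. The other arrays held 0.40 to 446 with a median of 6.00, so both developmental myosins were high on the same arrays with no overlap. Mylpf, the fast regulatory light chain, had 5241, then 4792 and 2411, then 3232 and 1582 on these arrays in the same order, against 1.70 to 166 elsewhere.

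The remaining thick filament genes included Myl1 and Myl4, a fast and an embryonic light chain, the myosin-binding proteins Mybpc1 and Mybph, and the M-line proteins Myom1 and Myom2. Myom2 reached 4318 in the stroma of ERα(+/+) EE2 replicate 2 and at most 227 on the 31 other arrays. Mybph and Myom1 had 4 of the 5 arrays among their top 5. Myh1, an adult fast heavy chain, went its own way, with 450.2 and 165 in the stroma and epithelium of ERα(−/−) BPA replicate 1, 264 and 13.4 in those of ERα(−/−) EE2 replicate 3, and 3.10 in the stroma of ERα(+/+) EE2 replicate 2. The heavy chain genes are close relatives, and the Myh1 probe set is of a kind that can bind related transcripts.

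All 9 thin filament genes had at least 4 of the 5 arrays on top, and 8 had all 5. Acta1, skeletal alpha actin, had 1838 in the stroma of ERα(+/+) EE2 replicate 2, 1895 and 1306.5 in the stroma and epithelium of ERα(−/−) EE2 replicate 3, and 1333 and 494 in those of ERα(−/−) BPA replicate 1. On the other 31 arrays its median was 2.20 and its highest value 125, in the epithelium of ERα(+/+) vehicle replicate 1. Actc1, the cardiac actin that fetal skeletal fibres also use, had 5226, then 2829 and 2370.4, then 3591 and 1941 in the same order, against at most 194.5 elsewhere. Tnnt3, the fast troponin T, had 4972.5, then 3918 and 2018, then 2732 and 1047, against 1.00 to 281.5. Tnni2, the fast inhibitory subunit, had 2665, then 1499.6 and 917, then 1325 and 384, against at most 259.7. Actin and fast troponin thus stood apart on the same arrays. The slow troponin genes varied more among them, as given below with the fibre types. The fast calcium-binding subunit Tnnc2 reached 4934, and Neb, the giant ruler of the thin filament, reached 426.5.

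Of the 6 genes of the Z-disc, titin and desmin, 4 had at least 4 of the arrays on top. Ttn, the spring protein that spans the sarcomere, reached 4813 in the stroma of ERα(−/−) EE2 replicate 3 and at most 547 outside the 5 arrays. Actn2, an alpha-actinin of the Z-disc, reached 1122 against 107, and Myot, a Z-disc protein, 583 against 8.40. Des, the muscle intermediate filament, had 387 in the stroma of ERα(+/+) EE2 replicate 2, 671 and 170.0 in the stroma and epithelium of ERα(−/−) EE2 replicate 3, and 443 and 101 in those of ERα(−/−) BPA replicate 1, while other stroma arrays reached 125. Tcap, which anchors titin, and Actn3, the fast alpha-actinin, had only 2 and 3 of the arrays among their top 5.

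The 5 calcium handling genes and the 3 genes of energy metabolism followed the filaments. Atp2a1, the fast calcium pump of the sarcoplasmic reticulum, had 720.4 in the stroma of ERα(+/+) EE2 replicate 2, 697 and 422.5 in the stroma and epithelium of ERα(−/−) EE2 replicate 3, and 454 and 289 in those of ERα(−/−) BPA replicate 1, against 2.70 to 132 elsewhere. Ryr1, the calcium release channel, had 356, then 710.1 and 194, then 642 and 171 in the same order, against at most 54.6. The calcium-binding proteins Casq1 and Casq2 reached 1269 and 1045, and Cacng1, a subunit of the calcium channel, reached 272. Ckm, the muscle creatine kinase, had 501, then 188 and 144, then 247 and 124, against at most 35.4. Eno3 and Pygm, the muscle enolase and glycogen phosphorylase, reached 1036 and 368. All 8 genes except Cacng1 had the 5 arrays exactly on top.

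The regulators and the receptor were less uniform, with 2 of the 5 regulators and 1 of the 3 receptor genes having at least 4 of the arrays on top. Myog, which drives the differentiation of myoblasts, had 642 and 77.3 in the stroma and epithelium of ERα(−/−) BPA replicate 1, 366 in the stroma of ERα(+/+) EE2 replicate 2, and 249.8 and 83.0 in ERα(−/−) EE2 replicate 3, against at most 28.3 on the other 31 arrays. It was the only regulator with all 5 arrays on top, and it was highest in the stroma of ERα(−/−) BPA replicate 1, as Myh1 and Myod1 were. Myod1, the regulator of commitment, had a top signal of 57.7 in the stroma of ERα(−/−) BPA replicate 1 and reached 39.4 on the 31 arrays, so the groups of values overlapped. Myf6 had 15.4 to 56.7 on the 5 arrays and at most 24.2 elsewhere, and Myf5, expressed early in the lineage, had at most 20.3 on any array. Smyd1, a methyltransferase that helps myosin assembly, had 154 in the stroma of ERα(+/+) EE2 replicate 2 but also 120.2 in the epithelium of ERα(−/−) vehicle replicate 2. Of its 5 other probe sets, 2 had 4 of the 5 arrays on top, with highest values of 96.2 in the stroma of ERα(−/−) BPA replicate 1 and 27.1 in that of ERα(−/−) EE2 replicate 3, so the result for Smyd1 depends on the probe set. Chrna1, the alpha subunit of the acetylcholine receptor, had 80.6 and 15.4 in the epithelium and stroma of ERα(−/−) EE2 replicate 3 and at most 17.5 outside the 5 arrays. Chrng, the fetal gamma subunit, was highest at 139 in the stroma of ERα(+/+) EE2 replicate 3, an array whose muscle level was −0.01. A second Chrng probe set was highest at 115 in the stroma of ERα(+/+) EE2 replicate 2, with 1 of the 5 arrays on top. Chrnd, the delta subunit, never passed 7.80. Chrng and Chrnd are the exceptions named above.

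The E-box, CANNTG with N for any base, is the site that the myogenic regulators are known to bind, often in the form CAGCTG. The 250 bases before the transcription start were searched in RefSeq promoters of GRCm38.p6, which were given for 30 of the 41 genes. CANNTG, which reads the same on both strands, was present in 24 of them (80%) and in 69.3% of 27025 genes with a promoter. CAGCTG, which is counted within CANNTG, was present in 13 (43.3%) and 14.7%, respectively. TATAAA on the strand of the gene was present in 4 (13.3%) and 8.94%. The MEF2 and CArG motifs, searched on both strands by their usual consensus, were present in 4 (13.3%) and 3 (10%) of these genes and in 3.42% and 1.62% of all genes. A match is a description of letters and no site of binding, and no test was run. The windows of 4 genes with different roles are shown to let the E-boxes, in capitals, be seen beside the values above, and all 4 lie outside the annotated gene.
Acta1, skeletal actin, chr8:123894776-123895025, minus strand: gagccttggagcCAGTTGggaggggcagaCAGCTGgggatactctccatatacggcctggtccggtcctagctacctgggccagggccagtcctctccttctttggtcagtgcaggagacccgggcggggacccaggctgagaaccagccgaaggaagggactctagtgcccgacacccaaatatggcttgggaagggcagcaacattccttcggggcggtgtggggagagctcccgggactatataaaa
Myh8, perinatal myosin heavy chain, chr11:67276874-67277123, plus strand: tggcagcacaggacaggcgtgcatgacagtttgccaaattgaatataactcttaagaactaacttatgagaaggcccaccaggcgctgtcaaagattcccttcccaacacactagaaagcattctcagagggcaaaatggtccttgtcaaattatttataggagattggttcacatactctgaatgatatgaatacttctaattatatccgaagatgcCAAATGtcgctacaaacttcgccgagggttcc
Myog, differentiation regulator, chr1:134289754-134290003, plus strand: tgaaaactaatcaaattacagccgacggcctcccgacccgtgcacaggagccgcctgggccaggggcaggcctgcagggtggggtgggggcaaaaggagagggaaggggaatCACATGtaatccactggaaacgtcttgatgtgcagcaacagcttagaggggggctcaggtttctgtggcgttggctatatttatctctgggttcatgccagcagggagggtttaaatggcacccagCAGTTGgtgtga
Chrng, fetal receptor subunit, chr1:87205561-87205810, plus strand: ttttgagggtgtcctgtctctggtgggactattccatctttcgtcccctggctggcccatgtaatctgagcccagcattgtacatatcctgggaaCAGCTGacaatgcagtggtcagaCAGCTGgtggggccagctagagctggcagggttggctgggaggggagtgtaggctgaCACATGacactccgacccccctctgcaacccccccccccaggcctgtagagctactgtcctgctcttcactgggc

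In Acta1 the form CAGCTG began at −221 and a CArG motif at −73 from the start. Chrng held CAGCTG at −155 and −132, Myog held other E-boxes at −138 and −12, and Myh8 held a single other E-box at −32. Acta1, Myh8 and Myog had the 5 arrays of high muscle signal on top, and the probe set that stands for Chrng had 2 of them.

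The compartments of a gland were then compared. In ERα(−/−) EE2 replicate 3, 36 of the 41 genes were higher in the stroma, with a median difference of 0.99 on the log2 scale, while the median of all genes differed by −0.51. In ERα(−/−) BPA replicate 1 it was again 36 of 41, with 1.08 against −0.36. The exceptions included Chrna1 and Myf5 in both glands, at 80.6 and 20.3 in the epithelium of ERα(−/−) EE2 replicate 3 against 15.4 and 2.40 in its stroma. In ERα(+/+) EE2 replicate 2, 39 of 41 were higher in the stroma, with a median of 5.18 against −0.12, and the sum was 69.4 times that of the epithelium. Its epithelium, at a level of −0.21, was like the bulk of the arrays, with a Myh3 signal of 7.0 against 9312. In ERα(+/+) vehicle replicate 1 the order was turned, with 10 of 41 higher in the stroma and a median of −1.0. The other glands had 14 to 28 of 41 genes higher in the stroma. With 1 gland per case these are descriptions.

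For several fibre-type genes the muscle signal differed between the glands and was alike in both compartments of a gland. In ERα(−/−) EE2 replicate 3, genes of slow fibres were high. Myh7, the slow heavy chain, had 2811 in the stroma and 1446 in the epithelium of this gland, and 93.6 and 18.5 in those of ERα(−/−) BPA replicate 1 and 45.7 in the stroma of ERα(+/+) EE2 replicate 2. Myl2, the slow regulatory light chain, had 986 and 702.5 in this gland against 5.70, 3.40 and 37.4 on those arrays, in that order. Tnnc1, the slow calcium-binding troponin, had 1257 and 624 against 294, 119 and 215, and Tnnt1, the slow troponin T, 1857 and 1306 against 357, 203 and 659.6. Myl3, a slow light chain, had 842 and 356 against 58.9, 13.9 and 89.7, but 559 also lay in the stroma of ERα(−/−) vehicle replicate 3. The slow inhibitory troponin Tnni1 did not follow them, with 182 and 135 in this gland and 534 in the stroma of ERα(+/+) EE2 replicate 2.

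Fast-fibre genes did not vary as 1 set. Myh2, an adult fast heavy chain, had 89.5 and 88.7 in the stroma and epithelium of ERα(−/−) EE2 replicate 3. It had 3.60 and 1.70 in those of ERα(−/−) BPA replicate 1 and 17.8 in the stroma of ERα(+/+) EE2 replicate 2. By contrast, Pvalb, Myh1 and Myh4 were highest in ERα(−/−) BPA replicate 1. Pvalb, the calcium buffer of fast fibres, had 191 in its stroma and 229 in its epithelium, 15.3 and 18.5 in ERα(−/−) EE2 replicate 3, 6.30 in the stroma of ERα(+/+) EE2 replicate 2 and at most 15.1 elsewhere. Myh1 was given above, and Myh4, the fastest heavy chain, had 56.3 and 143 in this gland against 43.8, 18.4 and 53.2. The other way round, Actn3 was highest at 194 in the stroma of ERα(+/+) EE2 replicate 2, against 96.8 and 52.4 in this gland. The fast genes Mylpf, Tnnt3, Tnni2, Tnnc2 and Atp2a1 were also highest on that array. They were lower in the stroma of ERα(−/−) BPA replicate 1 than on either other bright stroma array. Tnni2 had 2665 in the stroma of ERα(+/+) EE2 replicate 2, 1499.6 in ERα(−/−) EE2 replicate 3 and 1325 in ERα(−/−) BPA replicate 1. The 41 genes as a whole were lower there too. Their median log2 difference from it was 0.56 for ERα(+/+) EE2 replicate 2 and 0.40 for ERα(−/−) EE2 replicate 3. Beyond that 0.56, Mylpf, Tnnt3, Tnni2, Tnnc2 and Atp2a1 differed by 0.14, 0.31, 0.45, −0.14 and 0.11. The epithelium of vehicle replicate 1 had Myh7 at 397.5 in ERα(+/+) and 286 in ERα(−/−), the highest values outside ERα(−/−) EE2 replicate 3. Across the 41 genes and 28 other sarcomere genes, Pearson's r of the log2 deviations was 0.89 and 0.90 between the compartments of the 2 glands and 0.66 to 0.84 between bright arrays of different glands. Across the 41 genes alone it was 0.87 and 0.90 within glands and 0.80 to 0.93 between them. Genes are not independent replicates, and these genes were selected for the comparison of fibre types after their values were seen.

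**Figure D3:**
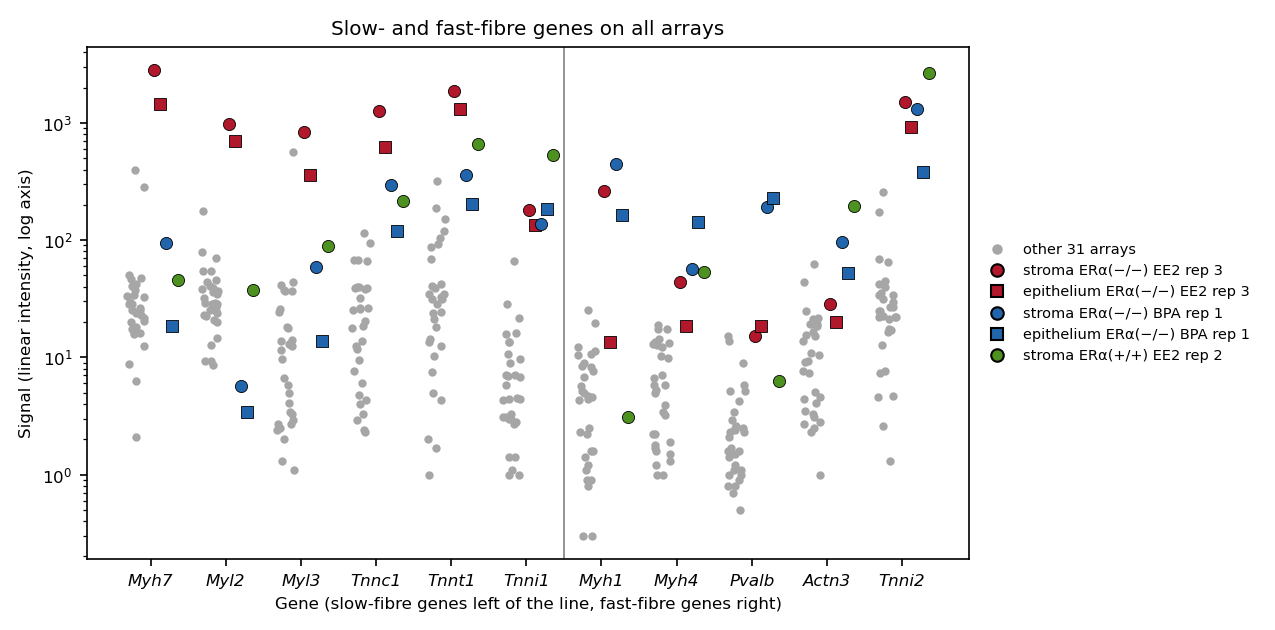
Signal (linear intensity on a log axis) of 6 slow-fibre and 5 fast-fibre genes on all 36 arrays, with the 5 arrays of high muscle signal in colour by gland, circles for stroma and squares for epithelium, and the other 31 arrays in grey. Both red symbols, ERα(−/−) EE2 replicate 3, are the highest for Myh7, Myl2, Tnnc1 and Tnnt1 but not for Tnni1, and both blue symbols, ERα(−/−) BPA replicate 1, for Pvalb, while Actn3 and Tnni2 are highest in green, the stroma of ERα(+/+) EE2 replicate 2.

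Other muscle genes, from lists drawn up for this purpose, behaved similarly in part. Of 28 other sarcomere genes, 12 had at least 4 of the 5 arrays among their top 5, as did 7 of 17 genes of excitation and calcium and 6 of 16 of metabolism. Of 20 genes of satellite cells, myoblasts and fusion, 2 did so, Mymk and Vgll2. Mymk, which fuses myoblasts, had 11.5 to 81.8 on the 5 arrays and at most 23.3 elsewhere. Pax7, a marker of satellite cells, had 3 of the arrays among its top 5. It had 12.2 to 43.5 on the 5 arrays and at most 17.9 elsewhere, so the ranges overlapped. Pax3 had 1 of the arrays on top, and Six4, Eya1, Cdh15 and Itga7 had 0. Of 11 genes listed as restricted to the heart, 1 had at least 4 of the arrays on top. It was Tnnt2, a troponin T that fetal skeletal muscle shares, at 132 to 1604. The 10 genes outside the list whose log2 signals followed the mean of the 41 most closely over the 36 arrays were Atcayos (Pearson's r = 0.94), Tceal7 (0.91), Sln (0.90), Pgam2 (0.88), Hspb7 (0.88), Apobec2 (0.86), Csrp3 (0.86), Hjv (0.85), Trdn (0.85) and Sypl2 (0.84). Sln, an inhibitor of the calcium pump, had 226 to 992 on the 5 arrays and at most 6.70 on the others, and Pgam2, the muscle phosphoglycerate mutase, 472.5 to 1571.5 and at most 65.5. All 10 had these 5 arrays as their highest. This follows largely from their choice, since the 5 arrays shape the mean that the genes were matched to.

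Markers of other tissues were counted in the same way. None of the genes of smooth muscle (12 measured), tendon and ligament (10), cartilage and bone (9), brown fat (9), white adipocytes (8), epithelium (18), keratinised epidermis (10), endothelium (10), leukocytes (10), erythroid cells (5), Schwann cells and nerve (10), fibroblasts (14) or the neuromuscular junction (9) had 4 or more of the 5 arrays among its top 5. The 5 arrays came from both compartments, so genes bound to a single compartment could hardly meet this count. For lists of such genes it does not show whether the tissue differed on the bright arrays. The epithelium markers, for example, had a level of −3.31 to −0.59 over the stroma arrays and 0.35 to 2.01 over the epithelium arrays, with no overlap. On the bright arrays they lay within the range of the labelled compartment, at −2.10, −3.08 and −2.77 in the stroma and 1.21 and 1.12 in the epithelium. The ratio of Gapdh signals towards the 3' and 5' ends of its transcript, a measure of RNA and amplification quality, was 6.86 to 20.8 on the 5 arrays and 5.09 to 16.2 on the others, with 20.8, the highest of all, in the stroma of ERα(−/−) EE2 replicate 3. Its part in the result was not tested. The median signal of an array was 24.5 to 50.1 on the 5 and 10.9 to 66.8 on the others.

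**Figure D4:**
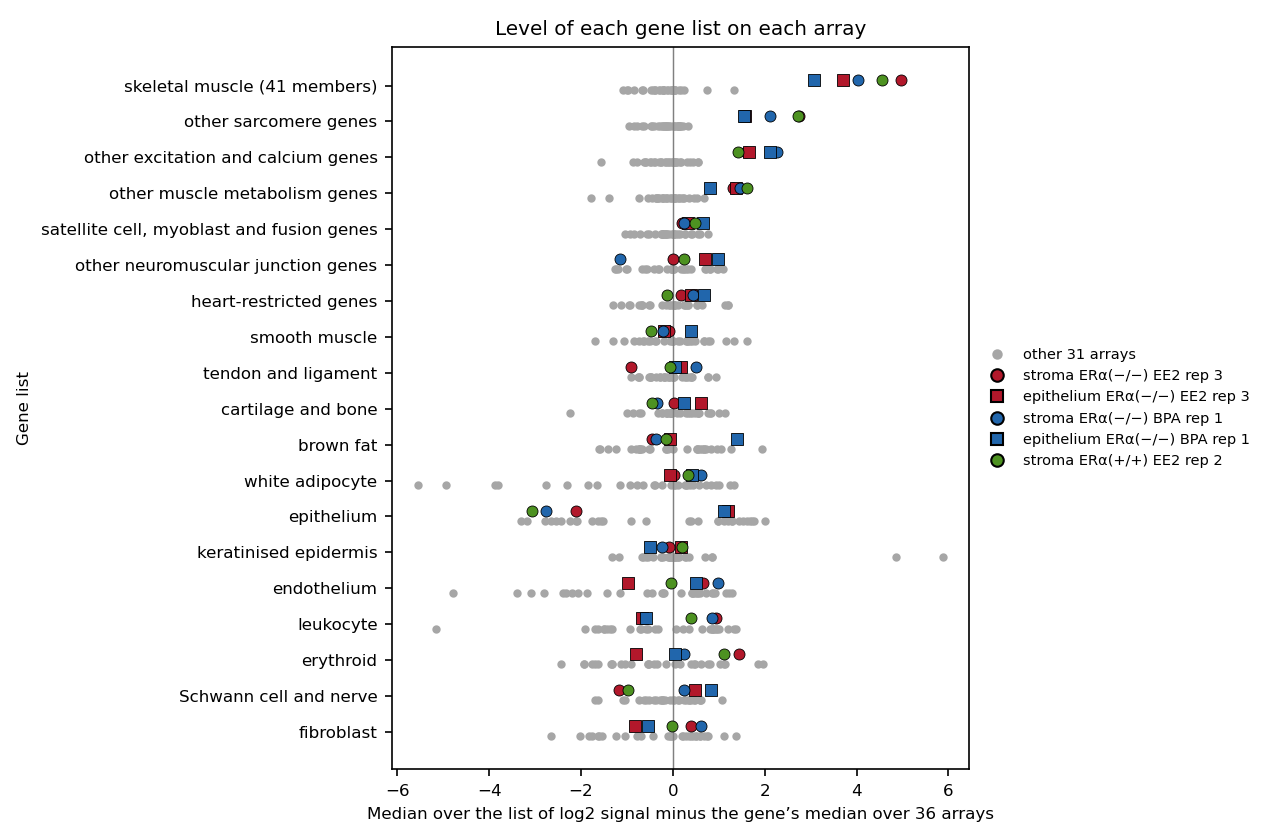
Level of each gene list on each array, as the median over the list of log2 signal minus the median of the gene over 36 arrays. Coloured symbols are the 5 arrays of high muscle signal and grey points the other 31. The 5 arrays lie apart from the grey points for the 41 skeletal muscle genes and the 3 lists of other muscle genes at the top, and among them or at their edge for the lists of other tissues.

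Between the compartments, 2 of the 41 genes were called higher in the stroma at an adjusted p under 0.05 in limma with the gland as a block, and none lower, where 21.3% of all 45101 probe sets were called (4.51% higher, 16.8% lower). After quantile normalization, which moved the median of all probe sets from −0.35 to −0.01, the shares were 8% higher and 8.13% lower and 3 of the genes were called, all higher (Myom1, Des and Eno3). Myom1 had a signal of 198 ± 203 in the stroma, with a lowest value of 2.80, a median of 145 and a highest of 752.5, and of 59.4 ± 69.0 in the epithelium, with 2.40, 33.4 and 227 (SD, n = 18 each). It was 1.92 higher in the stroma on the log2 scale, with a standard error of 0.44 and an adjusted p = 0.00384 in limma. Des had 115 ± 188 in the stroma (2.60, 37.9 and 671) and 26.6 ± 43.1 in the epithelium (2.60, 11 and 170.0), and its log2 change was 1.66 (standard error of 0.44, with an adjusted p = 0.00948). The arrays of the compartments overlapped for both. Without the 3 glands of high muscle signal the changes were 1.74 (adjusted p = 0.0196) for Myom1 and 1.25 (adjusted p = 0.0322) for Des, so both were still higher in the stroma, and Mybph and Cacng1 were then called lower, with 16.4% of all probe sets called in that fit. Those glands were picked by the level of these same genes, so the p-values without them are a description. Des is also made by other contractile and perivascular cells. The median change of the 41 genes was 0.36, with 25 above 0, while that of all probe sets was −0.35, and without the 3 glands it was −0.08 against −0.34. Without the gland as a block Des was not called (adjusted p = 0.0770).

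In neither compartment did limma call any of the 41 genes between exposures or genotypes at an adjusted p under 0.05. In each of these 12 comparisons, interactions included, the share of all probe sets called was 0% or, for genotype in the stroma and EE2 in the epithelium, 0.00222%. After EE2 in the stroma, 39 of the 41 genes were above 0, with a median change of 1.66 against 0.00 for all probe sets. At an unadjusted p under 0.05, 7 were higher (Myh3, Mylpf, Tnnt1, Tnnc1, Actn2, Cacng1 and Ckm) and none lower, where 1.9% of all probe sets were higher and 2.62% lower. Myh3 in the EE2 stroma was 435, 9312 and 68.1 in ERα(+/+) and 67.5, 144.5 and 8801 in ERα(−/−), and in the vehicle stroma 134, 3.60 and 40.5 and 81.5, 67.3 and 45.5. One bright array lay in each genotype, and the other values of the exposures overlapped. The log2 change of Myh3 was 3.70, with a standard error of 1.56 and an adjusted p = 0.996 in limma, ran from 2.62 to 4.52 when 1 array was left out, and was 1.66 without the bright arrays. Acta1 in the EE2 stroma was 2.50, 1838 and 18.9 in ERα(+/+) and 0.80, 6.60 and 1895 in ERα(−/−), against 1.2 to 21.0 after vehicle. Its change of 3.08 became 0.12 without the bright arrays, and that of Tnnt3 went from 3.70 to 0.69. The changes of the 7 genes named at an unadjusted p under 0.05 were smaller but still above 0 without those arrays, from 0.96 for Ckm to 1.81 for Cacng1, with 1.48 for Mylpf, 1.10 for Tnnt1, 1.42 for Tnnc1 and 1.41 for Actn2. Of these Cacng1 alone had an unadjusted p under 0.05 (unadjusted p = 0.0122 and adjusted p = 1.00 in limma). Tnni2 and Ryr1 were then below 0, at −1.68 and −1.83 (unadjusted p = 0.0177 and 0.0207 in limma, neither called after adjustment). The bright arrays were picked by the level of these same genes, so p-values without them are a description and no test of the exposure. The 7 genes were themselves picked by their rise with all arrays, which include the remaining ones. A change above 0 in them is thus partly built in. The median over the 41 genes became 0.02, against 0.05 for all probe sets.

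After BPA in the stroma the median change was 0.92 against 0.16 for all probe sets, and none of the genes had an unadjusted p under 0.05, where 3.19% of probe sets were higher and 1.35% lower at that p. Without replicate 1 of ERα(−/−) BPA it was 0.10. Between BPA and EE2 in the stroma the median was −0.99, with 0.11 without replicate 3 of ERα(−/−) EE2 and −0.05 without all bright stroma arrays. At an unadjusted p under 0.05 only Chrna1 was lower and none higher, where 0.807% and 2.94% of probe sets were. Between ERα(−/−) and ERα(+/+) stroma the median was 0.61, and −0.03 without ERα(−/−) EE2 replicate 3, with none of the genes at that p (2.91% of probe sets higher, 0.907% lower). The interaction of BPA with genotype in the stroma had a median of 1.60, and −0.12 without replicate 1 of ERα(−/−) BPA. That of EE2 with genotype had −0.85, with 0.70 without ERα(+/+) EE2 replicate 2, −2.31 without ERα(−/−) EE2 replicate 3 and −0.91 without all bright stroma arrays. Neither held a gene at that p, where 2.82% of probe sets were higher and 0.858% lower for BPA, and 1.73% and 2.27% for EE2. The direction of the median over the genes thus turned with 1 array in each of the last 4 comparisons.

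In the epithelium the ERα(−/−) arrays had a median change of 1.11 over the genes against 0.38 for all probe sets, with 37 of 41 above 0. At an unadjusted p under 0.05, 6 genes were higher (Mylpf, Tnni1, Tnnt1, Myot, Tcap and Chrna1), and none lower, where 7.86% and 0.324% of all probe sets were. Without the 2 bright arrays, both ERα(−/−), the median was 0.27 against 0.44 and none of the genes was higher at that p. These arrays were picked by the level of the same genes, so this count is a description. With all arrays after quantile normalization none was higher either, and the median was 0.58. After BPA the median was 0.48, below the 0.68 of all probe sets, with 4 genes higher (Neb, Des, Casq2 and Eno3) and Tcap lower, where 17.3% and 0.39% of probe sets were. Quantile normalization turned this balance, with a median of −0.32, no gene higher and 3 lower (Tcap, Myod1 and Chrnd), where 3.67% and 4.81% of probe sets were. The 6 BPA arrays had Casq2 at 159 ± 102 and the 6 vehicle arrays at 30.1 ± 14.8 (SD). The bright array, ERα(−/−) BPA replicate 1, had 356.7 and the other BPA arrays 79.4 to 150.5. The log2 change of Casq2 was 2.34 with a standard error of 0.74 and an adjusted p = 0.200 in limma. It was 1.47 after quantile normalization (adjusted p = 0.619). Without the bright arrays the median change of the 41 genes after BPA was 0.04, against 0.74 for all probe sets. After EE2 the median was 0.49 against 0.40, with no gene at that p (8.15% of probe sets higher, 0.729% lower), and −0.03 without ERα(−/−) EE2 replicate 3. Between BPA and EE2 it was 0.03, with Tcap lower and no gene higher, where 0.57% and 3.65% of probe sets were. The interactions with genotype had medians of 1.46 for BPA and 1.88 for EE2, against 0.13 and 0.38 for all probe sets. Without the 2 bright arrays the medians were 0.59 against 0.24 for BPA and 0.44 against 0.46 for EE2. With all arrays, Tnnc1 and Chrng were higher at that p for EE2 and none lower, where 4.95% and 1.06% of probe sets were. For BPA no gene passed, against 2.25% of probe sets higher and 1.21% lower.

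**Figure D5:**
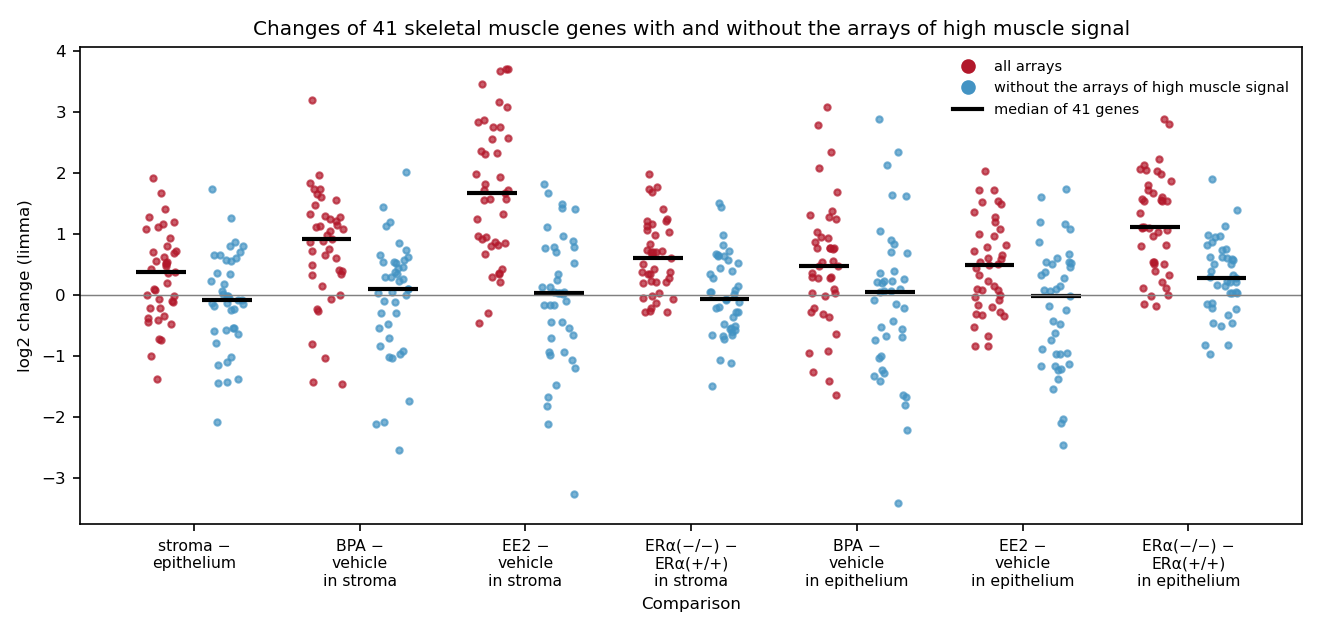
Log2 changes of the 41 genes from limma in 7 comparisons, with all arrays in red and without the arrays of high muscle signal in blue (for stroma against epithelium, without their 3 glands), and medians as black bars. The median falls from 1.66 to 0.02 for EE2 in the stroma and from 0.92 to 0.10 for BPA in the stroma.

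Where a gene had further probe sets, they were checked as well. There were 26 of them for 12 of the genes, and 12 had at least 4 of the 5 arrays on top. Of the 7 with a mean signal of at least 50 all 7 did so, and of the 17 with a mean under 20, 3 did.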

How the data were processed

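Total RNA was extracted from laser-captured epithelium and peri-ductal stroma, amplified and hybridized to Affymetrix Mouse Genome 430 2.0 arrays. The values deposited by the authors are linear signal intensities per probe set, made with GCOS per the labels, and the scaling is not given in the sources used here. The methods name RMA and log values, which these linear values, 39 of them at 0, are not. Signals were floored at 0.1 and taken as log2. Genes were named from GEO's platform annotation (34958 of 45101 probe sets with 1 symbol, 932 with several, 9211 with none). Changes were fitted with limma 3.58.1 in R 4.3.3 over all probe sets with Benjamini-Hochberg adjustment, stroma against epithelium over 36 arrays with the gland as a block, and exposures and genotypes over the 18 arrays of a compartment. The script was tested on simulated data. The 41 genes and the lists were chosen with earlier results of these data known. Named genes were those of main role in each class, any gene called, and the 10 genes outside the list of highest correlation. The 5 arrays left out in an added alternative had a level above 2, chosen after seeing the data. The labels call replicates biological. Arrays of one gland are paired through the replicate number of the labels, and the correlation of their deviations from the group means was −0.04 to 0.16 (mean 0.08), with 7 of 18 over 0.1. The number of arrays limits the precision.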

Additional observations from a re-analysis of the deposited data

Results flagged for a closer look

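Within sets of arrays of one exposure or genotype in a compartment, single arrays stood far from the rest in the level of the 41 genes. Among the 6 BPA stroma arrays it was ERα(−/−) BPA replicate 1, at 4.04, and among the 9 ERα(+/+) stroma arrays ERα(+/+) EE2 replicate 2, at 4.56. In the epithelium it was ERα(−/−) BPA replicate 1 among the 6 BPA arrays, at 3.08, ERα(−/−) EE2 replicate 3 among the 6 EE2 arrays, at 3.71, and ERα(+/+) vehicle replicate 1 among the 9 ERα(+/+) arrays, at 1.32. Of 10 such sets 5 held an array that far out, by a cut-off set for about 1 in 20 under chance. That rate cannot be applied here, since the genes were chosen with earlier results known and the sets share arrays. The stroma of ERα(−/−) EE2 replicate 3, at 4.96, was not set apart in this way among the EE2 stroma arrays, which hold a second high array.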

How the results depend on the processing

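The same 5 arrays had a level above 2 after median centring, after quantile normalization, with 16 added to every value and without genes also known from the heart. With the second probe set of each gene, which 12 genes had, the number of arrays was 3 and that of glands with both compartments above 2 was 1 in place of 2. Between the compartments 2 genes were called, where 21.3% of all probe sets were. It was 5 after median centring (14.9%), 0 of the 12 with second probe sets, 1 with no replicate block (16.7%) and 4 without the glands of high level (16.4%). Leaving out 1 array gave 2 to 3 (18% to 23.3%). In the exposure and genotype comparisons the count stayed at 0 with the replicate block, the other scalings, filters and models, and when any 1 array was left out. The methods' t-test was run at their unadjusted 0.05 and a change of at least 2-fold. Here it pooled genotypes (or exposures, for genotype) and used log2 of the deposited signals, not RMA values. The paper's focal adhesion and apoptosis tables compared ERα(+/+) arrays alone. With this test the count was 4 for EE2 in the stroma (3.08% of all probe sets) and 1 for BPA against EE2 in the stroma (2.98%). In the epithelium it was 3 for BPA (10.8%), 1 for BPA against EE2 (2.88%) and 3 for genotype (4.83%). The replicate numbers did not pair the groups within a compartment (2 of 45 correlations exceeded 0.1 in each compartment). Signals stayed under 100 on all arrays for 5 genes, Myf5, Chrnd, Myod1, Myf6 and Chrna1, which limits what can be said of them. Also, 3 arrays per group with 0 or 1 bright array cannot place the muscle signal by exposure or genotype.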

Other observations

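Outside the 5 arrays, keratinised epidermis genes had a level of 5.88 on the array where they were highest, against −0.51 to 0.19 on the 5 arrays of high muscle signal. Smooth muscle genes on those 5 arrays had levels of −0.47 to 0.39, inside the −1.70 to 1.61 of the other 31.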
